A study of Mus musculus with 24 samples.

Results

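The immunoglobulin heavy chain variable segments (Ighv) were followed in RNA of bone marrow cells from 24 male mice. They were found by name, as every row of the deposited table whose Ensembl gene ID has a symbol beginning with Ighv in the GENCODE M21 annotation, and they made up 185 of 54752 rows. All mice were on a C57BL/6 background. GC-WT and GC-KO mice are wild-type and Nrf2-KO ground controls, and FL-WT and FL-KO mice are wild-type and Nrf2-KO mice that stayed on the International Space Station for 31 days, with 6 mice and 6 libraries in each group. The flight mice were 8 weeks old when transported and, like the ground controls, were acclimated for 3 weeks in individual cages, and they were sampled about 2 days after landing, so flight, landing and the first days on the ground cannot be told apart. The ground controls were kept in Japan under simulated flight housing. The paper states that flight and ground mice could not be sampled at the same site. Sampling site thus goes with flight in every comparison of flight and ground mice, and its part in the differences was not tested. The Nrf2-KO mice lack Nrf2, a transcription factor that turns on antioxidant genes, from the germline onward, so bone marrow and all other tissues carry the deletion. The questions were whether flight (FL-WT vs. GC-WT in wild-type mice, FL-KO vs. GC-KO in Nrf2-KO mice) and loss of Nrf2 (GC-KO vs. GC-WT on the ground, FL-KO vs. FL-WT after flight) go with other levels of the segments, and whether the flight difference depends on genotype.

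An antibody heavy chain is assembled in developing B cells in the bone marrow, where the RAG enzymes join a variable, a diversity and a joining segment of the Igh locus. A B cell makes its heavy chain from a single rearranged variable segment. The Ighv transcripts of a tissue thus depend on which segments its B lineage cells have rearranged and how strongly they transcribe them. The values do not separate transcripts of rearranged segments from those of segments not rearranged. Plasma cells, which secrete antibody, transcribe their segment far more than other B cells. Segments fall into families by sequence. The families Ighv2 and Ighv5 lie nearest the joining segments and are called proximal here, Ighv1 and Ighv8 fill the far end of the locus and are called distal, and the remaining families are called intermediate.

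The 185 rows lay on chromosome 12 of GRCm38 between positions 113572927 and 116010093, a span of 2.44 Mb, and 183 of them were on the minus strand. The annotation lists 113 as functional variable segments and 70 as pseudogenes. The other 2 rows, second entries for Ighv5-8 and Ighv1-13 on the plus strand, carry a separate biotype. Of all rows, 109 belonged to distal, 43 to intermediate and 33 to proximal families. The number of rows at 0 TPM in every library was 56, of which 47 were pseudogenes and 7 were functional segments. TPM is a transcript abundance scaled to the same total in each library and by transcript length, so levels of different segments can be compared.

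The last 60 bases of 9 segments are shown, because this end carries the codon of the conserved cysteine just before the join to the diversity segment, and because likeness between segments limits how reads can be assigned. The first 5 are abundant segments of 4 families, the next pair shares its whole end, Ighv7-3 was lower in several comparisons, and Ighv1-41 is the most abundant pseudogene. All are from GENCODE M21 transcripts on GRCm38, minus strand, 5′ to 3′, with the cysteine codon in capitals.
Ighv1-26, chr12:114788372-114788431: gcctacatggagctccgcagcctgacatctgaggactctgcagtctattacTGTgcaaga
Ighv8-8, chr12:115294062-115294121: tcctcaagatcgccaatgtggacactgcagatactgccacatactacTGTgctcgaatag
Ighv1-9, chr12:114583569-114583628: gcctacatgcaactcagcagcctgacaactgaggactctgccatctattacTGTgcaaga
Ighv2-3, chr12:113611187-113611246: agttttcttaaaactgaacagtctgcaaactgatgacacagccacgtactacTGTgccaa
Ighv9-3, chr12:114140692-114140751: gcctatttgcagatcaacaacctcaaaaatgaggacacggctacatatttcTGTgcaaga
Ighv1-62-2, chr12:115446409-115446468: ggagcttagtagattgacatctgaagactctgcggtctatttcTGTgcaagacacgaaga
Ighv1-71, chr12:115742205-115742264: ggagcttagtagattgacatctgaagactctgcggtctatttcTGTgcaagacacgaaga
Ighv7-3, chr12:114153180-114153239: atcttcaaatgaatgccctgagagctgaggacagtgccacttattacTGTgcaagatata
Ighv1-41, chr12:114932371-114932430: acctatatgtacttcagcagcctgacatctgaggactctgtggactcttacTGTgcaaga

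The letters TGTGCAAGA stood in the last 20 bases, on the strand of the segment, in 63 of 113 functional segments (55.8%) and in 21 of 70 pseudogenes (30.0%). The shorter TGT within it was in that window in 97.3% of functional segments and in 70.0% of pseudogenes. Likeness between segments was high. The segments that entered the tests were 95.4% identical to their most alike other segment at the median, and 29 of 93 shared at least 1 stretch of 100 bases with another segment. Ighv1-62-2 and Ighv1-71 were 99.7% identical and had the same TPM in every library, so reads could not be told apart between them, and their values are best read as those of a single pair.

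Nfe2l2, the gene of Nrf2, was at 17.1 to 26.1 TPM in GC-WT mice and 11.4 to 27.3 TPM in FL-WT mice, and at 3.60 to 7.18 TPM in GC-KO mice and 2.22 to 4.31 TPM in FL-KO mice, with no overlap between genotypes. As marrow, the libraries held summed TPM of at least 86590 for 6 erythroid genes and of at least 28483 for 7 neutrophil genes. The deposited table holds no read counts, so depth is unknown and no counting error can be given. Between 35.4% and 59.6% of each library's TPM belonged to Rmrp, Rpph1, Rn7sk, Rn7s1 and Rn7s2, 5 small RNAs. All tested genes had a median log2 fold change below 0 in each comparison, so the main counts of DEGs are set beside those of all genes. Counts of segments called under other settings mostly lack such a share and describe the segments only.

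Ighv transcripts were most abundant in GC-WT mice and least abundant in FL-KO mice. Their summed TPM was 285, 545, 342, 709.8, 547 and 209 in GC-WT mice 3, 5, 6, 7, 8 and 10, a mean of 439.8 ± 191 (SD, n = 6). It was 328, 154, 255, 582, 245 and 267 in FL-WT mice 3, 5, 6, 7, 8 and 10, a mean of 305 ± 147 (SD, n = 6). The wild-type groups overlapped, with FL-WT mouse 7 above all but 1 GC-WT mouse. It was 152, 190.0, 169, 133, 271 and 212 in GC-KO mice 1, 2, 4, 9, 11 and 12, a mean of 188 ± 49.3 (SD, n = 6). It was 86.8, 97.8, 153, 114, 140.1 and 74.9 in FL-KO mice 1, 2, 4, 9, 11 and 12, a mean of 111 ± 30.5 (SD, n = 6). All 6 FL-KO mice were below all 6 FL-WT mice, whereas the groups of the other 3 comparisons overlapped.

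The log2 ratio of the group means for flight was -0.53 in wild-type and -0.76 in Nrf2-KO mice, and for loss of Nrf2 it was -1.23 on the ground and -1.46 after flight. With median-of-ratios scaling between libraries, the ratio for flight in Nrf2-KO mice was -0.29. These are bulk samples, in which fewer B lineage cells and less RNA per cell cannot be told apart.

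**Figure D1:**
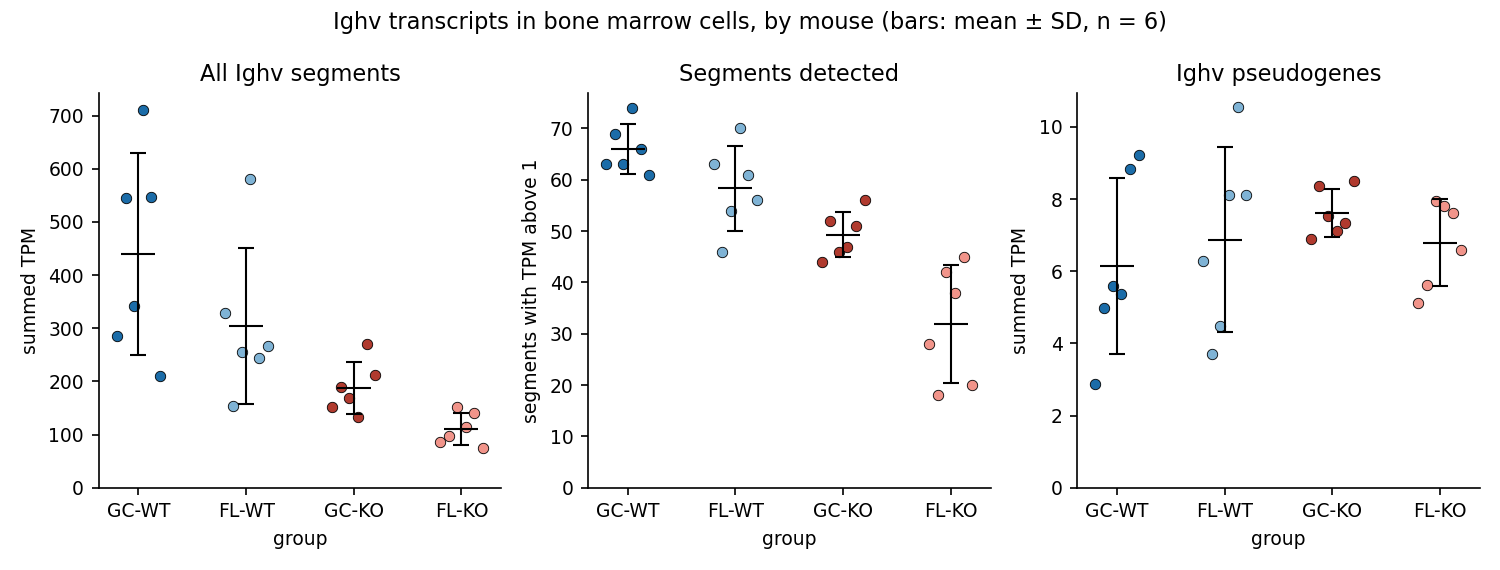
Summed TPM of all Ighv rows, number of segments with a TPM above 1, and summed TPM of Ighv pseudogenes, with a point per mouse and bars for mean ± SD (n = 6) by group. The sums and the number of segments are lowest in FL-KO mice, at 74.9 to 153 TPM and 18 to 45 segments, while the pseudogenes lie between 2.88 and 10.5 TPM with overlap between all groups.

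Fewer segments were detected where the sum was lower. The number with a TPM above 1 was 66.0 ± 4.82 (SD, n = 6) in GC-WT mice, 58.3 ± 8.26 in FL-WT mice, 49.3 ± 4.46 in GC-KO mice and 31.8 ± 11.5 in FL-KO mice. GC-WT mice had 61 to 74 such segments and GC-KO mice 44 to 56, with no overlap. FL-WT mice had 46 to 70 and FL-KO mice 18 to 45, again with no overlap, while flight and ground mice of the same genotype overlapped. The groups were closer when a TPM above 0 was enough, with 92 to 99 segments in GC-WT and 85 to 96 in FL-KO mice, so most of the segments missing above 1 TPM in FL-KO mice were still listed at lower values. Because a fixed limit was applied to lower values, this count follows the summed level and is not independent of it.

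A TPM above 1 in at least 1 library was reached by 93 segments, which entered the tests, and 90 of these were functional segments. The segments just under the limit were Ighv8-6 at 0.92 and Ighv5-15 at 0.99 TPM in their highest library, and those just above it were Ighv1-37 at 1.04 and Ighv1-20 at 1.07 TPM. Only 7 segments exceeded 1 TPM in all 24 libraries, and 54 did so in at least 1 library of every group. Of 11 segments that exceeded it in 1 group alone, 6 did so in GC-WT mice, 3 in FL-WT mice, 1 in GC-KO mice and 1 in FL-KO mice. Since such segments passed through the group in which they were high, the counts below describe the 93 that passed and not all 185.

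The 10 most abundant segments held 38.3% of the mean Ighv TPM over the 24 libraries. They were Ighv1-26, Ighv8-8, Ighv1-9, Ighv1-53, Ighv1-80, Ighv2-3, Ighv9-3, Ighv1-55, Ighv1-50 and Ighv1-64, in that order, from 15.8 to 6.68 TPM on average, and 8 of them are of distal families. Ighv1-26 (ENSMUSG00000094546.1, chromosome 12, 114788372 to 114788805) averaged 28.9 ± 13.9 TPM (SD, n = 6) in GC-WT mice, 17.4 ± 8.01 in FL-WT mice, 10.2 ± 6.34 in GC-KO mice and 6.69 ± 6.76 in FL-KO mice. FL-KO mouse 11 had 20.4 TPM and the other FL-KO mice 3.08 to 4.73, so a single mouse set much of that group's mean and SD. Single mice with high values also set the means of other abundant segments. Ighv8-8 (ENSMUSG00000104452.1) ranged from 3.82 to 109 TPM in GC-WT and from 0.75 to 18.6 TPM in FL-KO mice, and Ighv1-9 (ENSMUSG00000094694.6) from 3.38 to 145.7 TPM in GC-WT mice. Ighv1-64 (ENSMUSG00000094088.2) had narrower ranges in Nrf2-KO mice, at 3.26 to 6.03 TPM in GC-KO mice and 2.76 to 5.06 TPM in FL-KO mice.

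**Figure D2:**
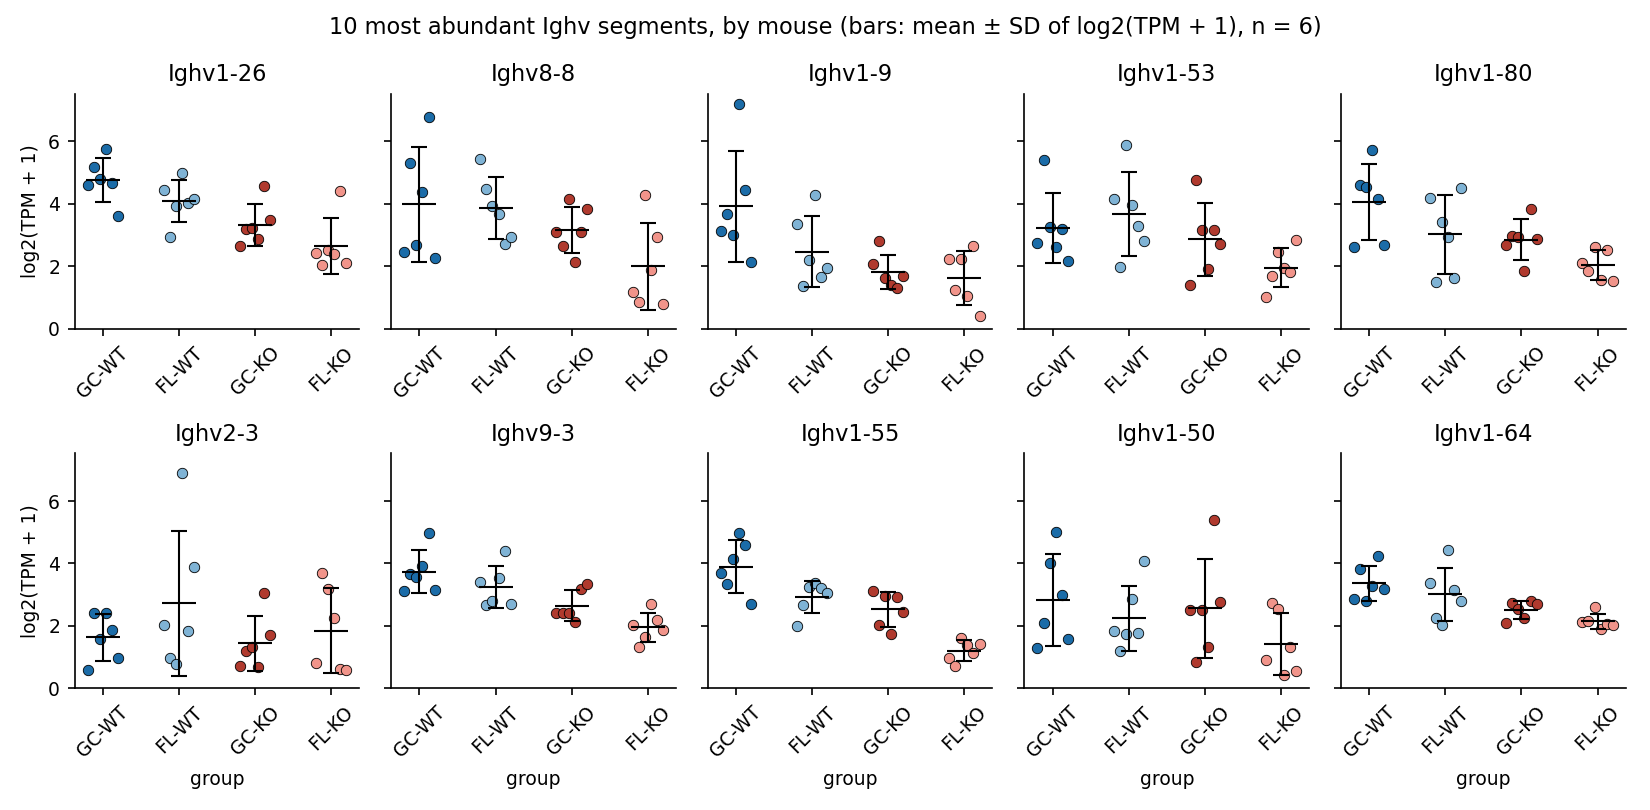
Levels of the 10 most abundant Ighv segments as log2(TPM + 1) on a linear axis, with a point per mouse and bars for mean ± SD of these values (n = 6). In most panels the mice of a group spread over several log2 units, and the mean is lowest in FL-KO mice in all panels except that of Ighv2-3.

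In single mice, 1 segment could hold a large part of all Ighv transcripts. The most abundant segment of a mouse held 4.75% to 22.9% of its Ighv TPM, and 11 different segments led in the 24 mice. Ighv8-8 led in 6 mice, Ighv1-26 in 5, Ighv1-53 in 4 and Ighv2-3 in 2. The highest shares were those of Ighv1-53 in FL-WT mouse 6 (22.9%, 58.3 TPM), Ighv1-9 in GC-WT mouse 7 (20.5%, 145.7 TPM), Ighv2-3 in FL-WT mouse 7 (20.3%, 118 TPM) and Ighv8-8 in GC-WT mouse 8 (19.9%, 109 TPM). In GC-KO mouse 1 the near-identical Ighv1-62-2 and Ighv1-71 were listed at 13.5 TPM each, together 27.0 TPM or 17.8% of its Ighv TPM, while they summed to at most 1.64 TPM in the other GC-KO mice. These leaders were not tied to a group. The share of the leading segment was 11.6% ± 6.80 (SD, n = 6) in GC-WT mice, 14.4% ± 6.12 in FL-WT mice, 9.80% ± 4.10 in GC-KO mice and 10.2% ± 3.20 in FL-KO mice, and the groups overlapped in each comparison.

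**Figure D3:**
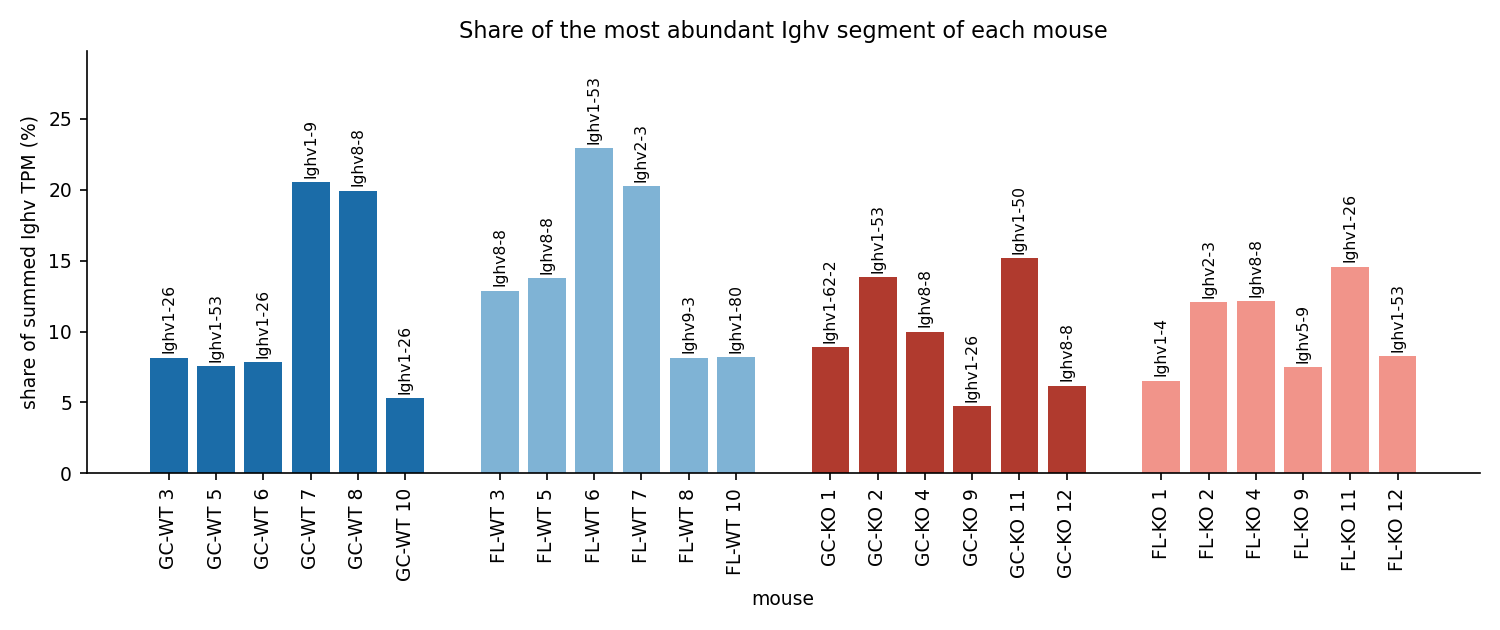
Share of summed Ighv TPM (%) held by the most abundant segment of each mouse, with the name of that segment above the bar and mice ordered by group and number. The bars run from 4.75% in GC-KO mouse 9 to 22.9% in FL-WT mouse 6, and different segments lead within each group.

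In FL-WT vs. GC-WT, 7 of 93 segments were lower as DEGs and none was higher. A DEG had a Benjamini-Hochberg adjusted p under 0.1 in limma, over all 12373 genes tested, and changed at least 2-fold on the log2(TPM + 1) scale, which understates the fold change of genes at a few TPM. The 7 segments were 7.53% of those tested, and 0.938% of all genes were lower as DEGs. Higher DEGs made up 0.0647% of all genes, and 1 segment was higher at an unadjusted p under 0.05. With no minimum fold change, 23.7% of segments and 39.0% of all genes were lower at the adjusted p. Thus the segments exceeded all genes in the share of large decreases and not in the share of decreases past the adjusted p. The median log2 fold change was -0.35 for the segments and -0.24 for all genes. All flight mice lay below all ground mice for 1 of 93 segments (1.08%) and for 4.19% of all genes.

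That segment was Ighv1-84 (ENSMUSG00000094940.1, chromosome 12, 115980702 to 115981134), the second farthest from the joining segments among those tested. It was at 0.71 to 4.47 TPM in GC-WT mice and at 0 to 0.49 TPM in FL-WT mice. Its log2 fold change was -1.27 ± 0.24 (SE; limma, adjusted p = 0.00051). The two-sided exact permutation test on the rank sum gave p = 0.00216, the smallest that 6 against 6 mice allow. Every segment without overlap has this p, here and below, so the test restates the lack of overlap and adds no support to it. Ighv7-3 (ENSMUSG00000076652.4) was at 2.86 to 14.4 TPM in GC-WT and at 1.10 to 4.24 TPM in FL-WT mice, where 4 flight mice lay below all ground mice, with a log2 fold change of -1.33 ± 0.32 (SE; limma, adjusted p = 0.0042). Ighv8-12 had a log2 fold change of -1.16 ± 0.27 (SE; limma, adjusted p = 0.0037), Ighv6-3 of -1.05 ± 0.30 and Ighv1-9 of -1.46 ± 0.58. GC-WT mouse 7 had the highest value of these 3 segments, at 19.3, 24.7 and 145.7 TPM, and without it their log2 fold changes were -0.87, -0.76 and -0.81 and no longer met the fold threshold. The call of Ighv1-9 was also lost without GC-WT mouse 8 or FL-WT mouse 5, 6, 8 or 10, and that of Ighv6-3 without FL-WT mouse 5 or 6. Ighv1-62-2 and Ighv1-71 had a log2 fold change of -1.03 ± 0.47 (SE; limma, adjusted p = 0.095), which fell short of a DEG without any 1 of 13 of the 24 libraries.

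The count of 7 was sensitive to scaling. It was 14 when the 5 small RNAs were left out, 2 after median-of-ratios scaling and 0 after quantile normalization, where limma gave 9 segments that were lower at an unadjusted p under 0.05, and it was 16 with a pseudocount of 0.1. Without GC-WT mouse 7, FL-WT mouse 6 or FL-WT mouse 5 it was 4, 4 and 3, and without GC-WT mouse 10 it was 11.

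In FL-KO vs. GC-KO, 3 of 93 segments (3.23%) were lower as DEGs, beside 2.13% of all genes. No segment and 0.0% of all genes were higher as DEGs, and no segment was higher at an unadjusted p under 0.05 in limma. With no minimum fold change, 26.9% of segments and 53.1% of all genes were lower at the adjusted p. The median log2 fold change was -0.31 for the segments and -0.29 for all genes, a difference of -0.02. All FL-KO mice lay below all GC-KO mice for 2 of 93 segments (2.15%) and for 18.4% of all genes. After median-of-ratios scaling the medians differed by -0.11, and after quantile normalization or without the 5 small RNAs by -0.10. The share of TPM in these small RNAs was 51.2% ± 4.46 (SD, n = 6) in FL-KO mice and 44.7% ± 4.68 in GC-KO mice, with 5 FL-KO mice above all GC-KO mice, and without them 4 segments were lower as DEGs.

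Ighv1-55 (ENSMUSG00000095589.2, chromosome 12, 115208095 to 115208591), a distal segment, had the largest decrease. Its values were 2.36, 3.08, 4.42, 6.67, 6.74 and 7.60 TPM in GC-KO mice and 0.66, 0.97, 1.19, 1.61, 1.68 and 2.06 TPM in FL-KO mice, without overlap, and the log2 fold change was -1.33 ± 0.30 (SE; limma, adjusted p = 0.0016; exact permutation test, p = 0.00216). In wild-type mice its flight difference was -0.98 ± 0.30 (SE), just short of the fold threshold. Ighv7-3 was at 0.97 to 7.17 TPM in GC-KO and at 0.15 to 1.32 TPM in FL-KO mice, a log2 fold change of -1.13 ± 0.32 (SE; limma, adjusted p = 0.0079). Ighv1-7 had a log2 fold change of -1.07 ± 0.37 (SE; limma, adjusted p = 0.023), and without GC-KO mouse 4, at 10.7 TPM, it was -0.73. The call of Ighv7-3 also ended without GC-KO mouse 11 or 12, and that of Ighv1-7 without FL-KO mouse 1 or 12. The count of 3 was 1 with median-of-ratios scaling or quantile normalization, 20 with a pseudocount of 0.1, 7 without GC-KO mouse 9, and 5 without GC-KO mouse 4, FL-KO mouse 4 or FL-KO mouse 11.

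In GC-KO vs. GC-WT, 15 of 93 segments (16.1%) were lower as DEGs, beside 3.04% of all genes. No segment and 0.129% of all genes were higher as DEGs, and 2 segments were higher at an unadjusted p under 0.05 in limma. With no minimum fold change, 50.5% of segments and 42.9% of all genes were lower at the adjusted p. The log2 fold change was below 0 for 89 of 93 segments, with a median of -0.56 beside -0.22 for all genes. After median-of-ratios scaling 79 of 93 were below 0, and the medians were -0.33 for the segments and 0.02 for all genes. All GC-KO mice lay below all GC-WT mice for 3 of 93 segments (3.23%) and for 9.15% of all genes.

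The 3 segments without overlap were Ighv10-3, Ighv1-81 and Ighv9-2, of which Ighv1-81 and Ighv9-2 are named here after their values were seen. Ighv10-3 (ENSMUSG00000095700.2, chromosome 12, 114523441 to 114523905) was at 3.13, 3.13, 4.47, 4.84, 5.35 and 5.60 TPM in GC-WT mice and at 0.69, 0.70, 0.98, 1.42, 1.67 and 2.26 TPM in GC-KO mice. Its log2 fold change was -1.26 ± 0.18 (SE; limma, adjusted p = 5.1e-05; exact permutation test, p = 0.00216). FL-WT mice, at 1.62 to 3.30 TPM, lay between those groups and overlapped with both, and FL-KO mice were lowest, at 0.39 to 1.48 TPM.

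Distal segments made up 10 of the 15 DEGs and 53 of the 93 segments tested. Ighv1-9 had the largest decrease, from 32.7 ± 55.7 to 2.77 ± 1.69 TPM (SD, n = 6), with a log2 fold change of -2.11 ± 0.58 (SE; limma, adjusted p = 0.0058). GC-WT mouse 7 had 145.7 TPM of it and the other GC-WT mice at most 20.9 TPM, and without that mouse the log2 fold change was -1.46. Ighv1-12 followed at -1.71 ± 0.57, Ighv8-12 at -1.69 ± 0.27, Ighv1-26 at -1.43 ± 0.37 and Ighv1-4 at -1.43 ± 0.55. For Ighv8-12, 5 of 6 GC-KO mice lay below all GC-WT mice, at 0.79 to 1.71 TPM beside 2.56 to 19.3 TPM. Ighv1-55 (-1.37 ± 0.30), Ighv1-82 (-1.31 ± 0.32), Ighv1-84 (-1.31 ± 0.24), Ighv6-3 (-1.24 ± 0.30) and Ighv1-80 (-1.20 ± 0.48) were lower as well, and all of these had adjusted p between 0.00034 and 0.049 in limma. Without GC-WT mouse 7, the calls of Ighv1-4, Ighv1-80 and Ighv6-3 were lost, with log2 fold changes of -1.08, -0.87 and -0.95. The count of 15 was 8 with median-of-ratios scaling, 7 with quantile normalization, 37 with a pseudocount of 0.1, 36 when the 5 small RNAs were left out, and 26 without GC-WT mouse 10, the GC-WT mouse with the lowest sum.

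In FL-KO vs. FL-WT, 21 of 93 segments (22.6%) were lower as DEGs, beside 8.36% of all genes. No segment and 0.097% of all genes were higher as DEGs, and none was higher at an unadjusted p under 0.05 in limma. With no minimum fold change, 47.3% of segments and 47.2% of all genes were lower at the adjusted p. The median log2 fold change was -0.58 for the segments and -0.25 for all genes, and 85 of 93 segments were below 0. After median-of-ratios scaling 78 of 93 were below 0, and the medians were -0.38 for the segments and 0.02 for all genes. All FL-KO mice lay below all FL-WT mice for 8 of 93 segments (8.60%) and for 20.6% of all genes.

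Ighv8-8 had the largest decrease, with a log2 fold change of -1.87 ± 0.65 (SE; limma, adjusted p = 0.021), but its groups overlapped, at 5.54 to 42.3 TPM in FL-WT and 0.75 to 18.6 TPM in FL-KO mice. Ighv1-55 decreased from 2.97 to 9.26 TPM in FL-WT mice to 0.66 to 2.06 TPM in FL-KO mice, with no overlap and a log2 fold change of -1.71 ± 0.30 (SE; limma, adjusted p = 4.6e-05; exact permutation test, p = 0.00216). Ighv1-53 (-1.72 ± 0.55), Ighv1-12 (-1.68 ± 0.57) and Ighv1-26 (-1.43 ± 0.37) followed. Ighv5-17 (ENSMUSG00000095571.2), of a proximal family, was at 2.38 to 6.10 TPM in FL-WT and at 0.44 to 1.55 TPM in FL-KO mice, without overlap, and its log2 fold change was -1.24 ± 0.23 (SE; limma, adjusted p = 0.00011; exact permutation test, p = 0.00216). Ighv1-19, Ighv1-39 and Ighv9-3 had log2 fold changes of -1.28 ± 0.27, -1.20 ± 0.32 and -1.29 ± 0.30, and Ighv1-52 of -1.36 ± 0.39.

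FL-WT mouse 7 had the highest Ighv sum of the flight mice, and without it the count fell to 10 and the log2 fold change of Ighv1-52 was -0.91. Ighv1-19 without FL-WT mouse 6 (-0.99) and Ighv1-39 without FL-WT mouse 3 (-0.98) also fell short of the fold threshold. The count of 21 was 8 with median-of-ratios scaling, 6 with quantile normalization and 40 with a pseudocount of 0.1.

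**Figure D4:**
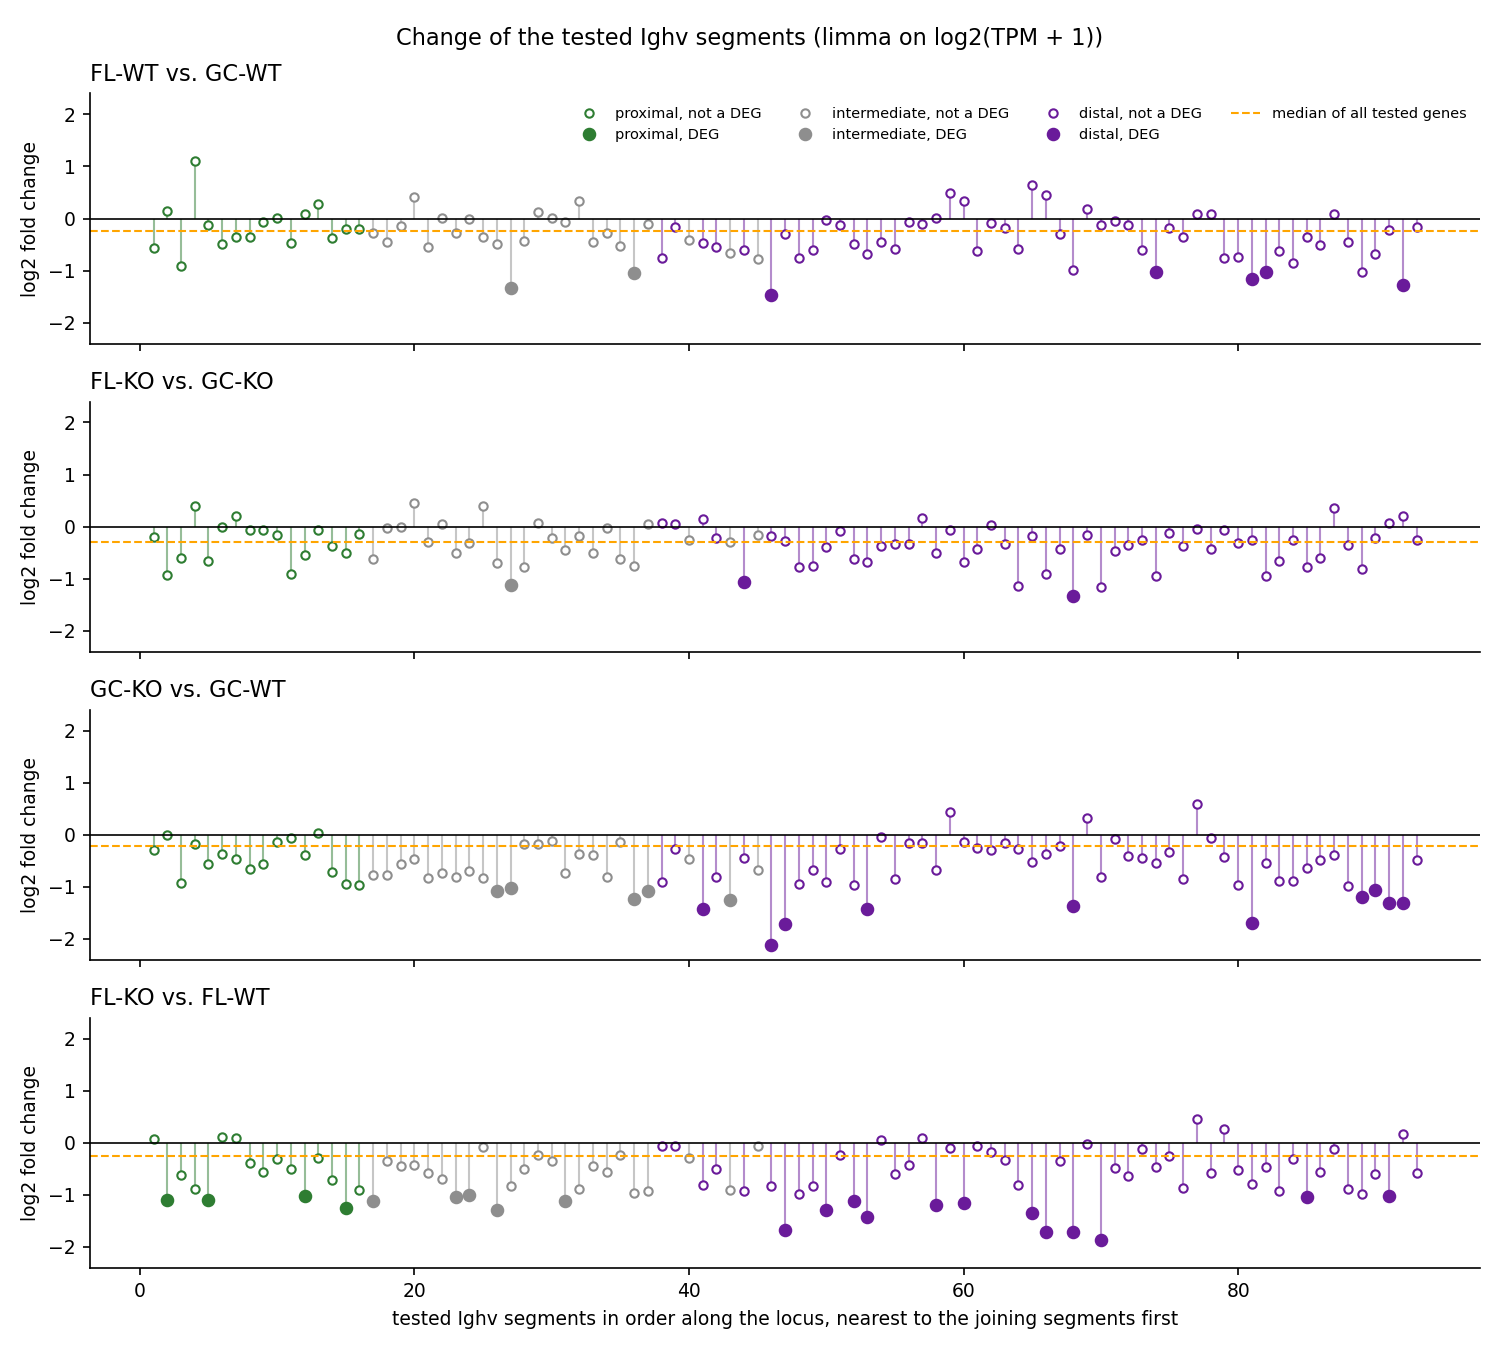
Log2 fold change (limma on log2(TPM + 1)) of the 93 tested segments in the 4 comparisons, in order along the locus from the joining segments, with proximal, intermediate and distal families in separate colours, filled points for DEGs and a dashed line at the median of all tested genes. All filled points lie below 0, with 7, 3, 15 and 21 of them from top to bottom, and those of GC-KO vs. GC-WT begin among the intermediate families.

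No segment was a DEG in the interaction of flight and genotype in limma, in which 0.0162% of all genes were DEGs. At an unadjusted p under 0.05 in limma, 428 of all 12373 genes differed in either direction. Among the 93 segments, 2 had a more negative and 5 a more positive flight difference in Nrf2-KO mice at that limit. The smallest adjusted p was that of Ighv1-84 (limma, adjusted p = 0.23), whose flight difference was -1.27 in wild-type mice and 0.20 in Nrf2-KO mice, an interaction of 1.47 ± 0.33 (SE) on the log2 scale. GC-KO mice had 0 to 0.79 TPM and FL-KO mice 0 to 1.51 TPM of it. Values this near 0 leave little room for a decrease with flight in Nrf2-KO mice. A floor and a dependence on genotype therefore cannot be told apart for this segment. The call of Ighv1-84 also depended on the fit. It was a DEG in the interaction with the mouse number as a replicate block (limma, adjusted p = 0.046) and without GC-WT mouse 10 (limma, adjusted p = 0.098).

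DEGs were found in families at both ends of the locus. In GC-KO vs. GC-WT, 10 of 53 distal, 5 of 24 intermediate and 0 of 16 proximal segments were lower as DEGs, and 7 proximal segments were lower at an unadjusted p under 0.05 in limma. In FL-KO vs. FL-WT the counts were 12 of 53 distal, 5 of 24 intermediate and 4 of 16 proximal segments. In FL-WT vs. GC-WT they were 5, 2 and 0, with 3 proximal segments lower at an unadjusted p under 0.05, and in FL-KO vs. GC-KO they were 2, 1 and 0, with 5 such proximal segments. The median log2 fold changes in GC-KO vs. GC-WT were -0.54 in distal, -0.74 in intermediate and -0.43 in proximal segments, while FL-KO vs. FL-WT gave -0.58, -0.57 and -0.58. The difference between the parts of the locus was not tested.

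The composition by family overlapped between all groups. Distal families held 67.3% ± 7.21 (SD, n = 6) of Ighv TPM in GC-WT mice, 62.2% ± 10.9 in FL-WT mice, 64.3% ± 6.45 in GC-KO mice and 60.3% ± 6.41 in FL-KO mice. Proximal families held 9.90% ± 2.67 in GC-WT mice, 15.2% ± 9.60 in FL-WT mice, 12.9% ± 2.93 in GC-KO mice and 14.7% ± 4.58 in FL-KO mice. FL-WT mouse 7, led by Ighv2-3, had 33.7% of its Ighv TPM in proximal families, and the other FL-WT mice 6.86% to 14.7%. Ighv1, the largest family with 93 members, alone held 58.6% in GC-WT and 52.4% in FL-KO mice. The summed TPM of intermediate families was 94.2 ± 29.3 in GC-WT and 27.3 ± 5.59 in FL-KO mice, that of distal families 306 ± 155 and 67.6 ± 23.2, and that of proximal families 39.9 ± 10.7 and 16.1 ± 6.22. In FL-WT mice the proximal sum was 55.8 ± 69.1 TPM, above the GC-WT mean, while the distal and intermediate sums were below it, and FL-WT mouse 7 alone had 196 TPM in proximal families.

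**Figure D5:**
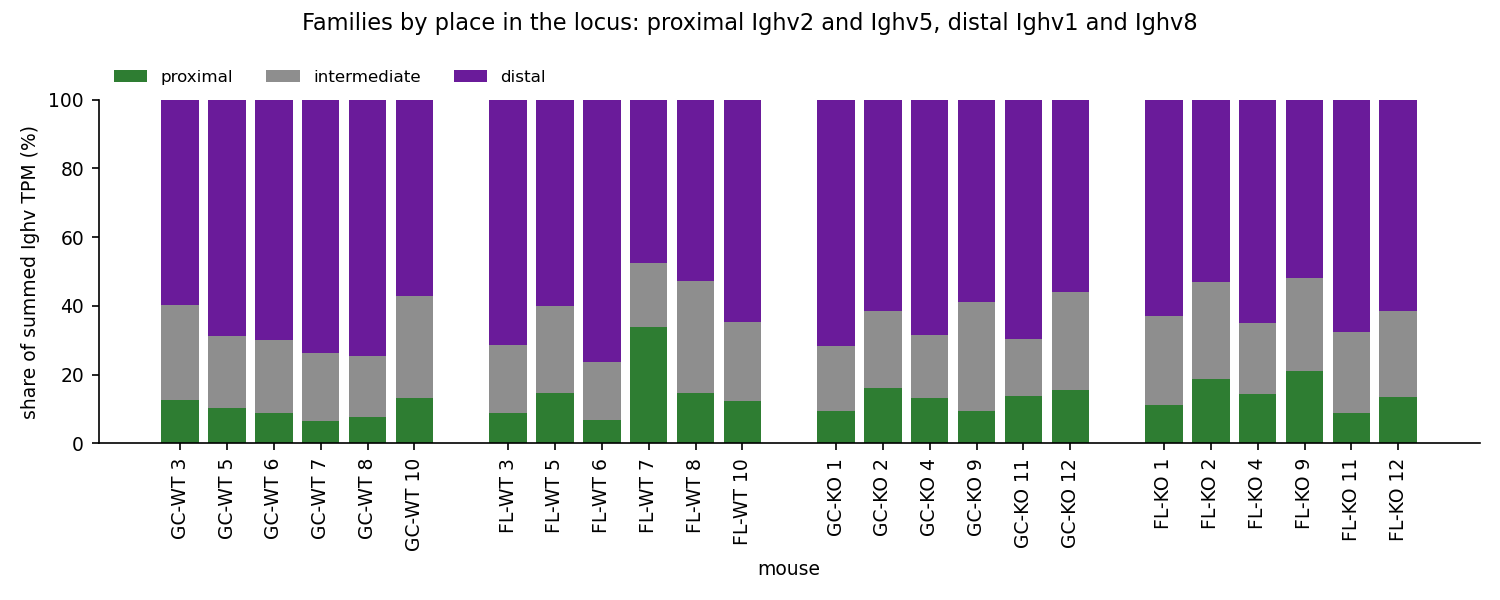
Share of summed Ighv TPM (%) in proximal (Ighv2 and Ighv5), intermediate and distal (Ighv1 and Ighv8) families, stacked to 100% for each of the 24 mice. Distal families hold 47.6% to 76.2% of the Ighv TPM in all mice, and FL-WT mouse 7 stands out with 33.7% in proximal families.

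The summed TPM of the pseudogenes overlapped between groups in all 4 comparisons, and that of functional segments in all but FL-KO vs. FL-WT. Functional segments summed to 433.6 TPM in GC-WT mice and 104 TPM in FL-KO mice on average. The pseudogenes summed to 6.15 ± 2.43 (SD, n = 6) in GC-WT mice, 6.88 ± 2.55 in FL-WT mice, 7.62 ± 0.66 in GC-KO mice and 6.79 ± 1.20 TPM in FL-KO mice. Their share of Ighv TPM was therefore 0.758% to 4.40% in GC-WT and 5.20% to 8.80% in FL-KO mice, without overlap. Of 3 pseudogenes tested, Ighv1-41 and Ighv8-10 were the more abundant and Ighv1-2 the least, all named here after their values were seen. Ighv1-41 (ENSMUSG00000102535.1, chromosome 12, 114932371 to 114932782) averaged 2.42 ± 1.09 TPM in GC-WT mice, 3.82 ± 1.61 in FL-WT mice, 3.45 ± 0.34 in GC-KO mice and 3.39 ± 1.10 in FL-KO mice. Ighv1-2 averaged 0.54 TPM in GC-WT mice and 0.33 TPM in GC-KO mice, a log2 fold change of -0.28 ± 0.19 (SE; limma, adjusted p = 0.27), and it passed the test's threshold in no comparison. Ighv8-10 averaged 1.51 ± 1.18 TPM in GC-WT mice, 1.47 ± 0.61 in FL-WT mice, 2.52 ± 0.89 in GC-KO mice and 2.32 ± 0.33 in FL-KO mice. Ighv1-41 and Ighv8-10 were the segments with positive differences past the adjusted p and without the fold, at 0.50 ± 0.21 for Ighv1-41 in FL-WT vs. GC-WT (SE; limma, adjusted p = 0.070), and at 0.45 ± 0.21 for Ighv1-41 and 0.59 ± 0.24 for Ighv8-10 in GC-KO vs. GC-WT (limma, adjusted p = 0.091 and 0.050).

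Constant regions, which follow the variable part in the heavy chain transcript, were compared with the segments. Ighm, which encodes the constant region of IgM, averaged 474 ± 221 TPM (SD, n = 6) in GC-WT mice, 290.3 ± 143 in FL-WT mice, 186 ± 51.4 in GC-KO mice and 102 ± 27.2 in FL-KO mice. The ratio of summed Ighv TPM to Ighm TPM lay between 0.824 and 1.20 in all 24 mice, so mice with a high Ighv sum also had a high Ighm level. Of 7 constant region genes tested, Ighm and Igha (IgA) were lower as DEGs in GC-KO vs. GC-WT (log2 fold changes of -1.25 ± 0.29 and -1.0 ± 0.34, SE) and in FL-KO vs. FL-WT (-1.40 ± 0.29 and -1.75 ± 0.34). Igha alone was lower in FL-KO vs. GC-KO (-1.18 ± 0.34), and none was a DEG in FL-WT vs. GC-WT in limma. The joining segments Ighj1 to Ighj4 were listed at 0 in every library, and nothing is drawn from them.

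The kappa light chain differed less between groups than the segments did. Igkc, the constant region of the kappa light chain, was at 1188 ± 529 TPM in GC-WT mice and 609 ± 89.3 TPM in FL-KO mice. The ratio of Ighv to Igkc was 0.295 to 0.502 in GC-WT mice, 0.240 to 0.403 in FL-WT mice, 0.222 to 0.293 in GC-KO mice and 0.147 to 0.206 in FL-KO mice. It did not overlap between genotypes within ground or within flight mice, nor between FL-KO and GC-KO mice, and it overlapped between the wild-type groups. Jchain, the joining chain of secreted IgM and IgA that marks plasma cells, was at 81.2 ± 34.2 TPM in GC-WT mice and 63.8 ± 11.6 TPM in FL-KO mice, and the ratio of Ighv to Jchain was 4.30 to 7.64 in GC-WT mice, 2.70 to 5.85 in FL-WT mice, 1.58 to 3.17 in GC-KO mice and 1.34 to 2.35 in FL-KO mice. The ratio to Jchain did not overlap between genotypes within ground or within flight mice, and overlapped between flight and ground mice of each genotype. The ratio of Ighv to Cd79a, a part of the B cell receptor, overlapped in every comparison. It was 2.90 to 8.07 in GC-WT mice, 3.81 to 7.90 in FL-WT mice, 3.74 to 5.65 in GC-KO mice and 4.45 to 5.72 in FL-KO mice. Cd79b, another B cell marker, differed less than Cd79a with loss of Nrf2. Its log2 ratio of group means was -0.33 on the ground and -0.19 after flight, beside -0.87 and -1.21 for Cd79a. For flight it was -0.58 with Nrf2 and -0.43 without, beside -0.57 and -0.91. The ratio of Ighv to Cd79b was not tested, so the overlap is stated for Cd79a only.

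Single genes of B cell development were lower as DEGs. Of 10 V(D)J recombination genes, Rag1, a subunit of the RAG recombinase, was lower as a DEG in FL-WT vs. GC-WT, from 6.59 ± 1.74 to 2.54 ± 1.33 TPM, and in GC-KO vs. GC-WT, to 2.64 ± 0.53 TPM, with log2 fold changes of -1.16 ± 0.19 and -1.05 ± 0.19 (SE). None of the 10 was a DEG in FL-KO vs. GC-KO or FL-KO vs. FL-WT. With no minimum fold change, 7 of the 10 were lower at the adjusted p in FL-WT vs. GC-WT, beside 39.0% of all genes. In FL-KO vs. GC-KO these were 8 of the 10, beside 53.1% of all genes. Each genotype comparison had 3, beside 42.9% of all genes on the ground and 47.2% after flight. The list's median log2 fold change was -0.51 and -0.42 for flight in wild-type and Nrf2-KO mice. For loss of Nrf2 it was -0.24 on the ground and -0.16 after flight. The surrogate light chain, which pairs with new heavy chains in pre-B cells, is made of products of Vpreb1 or Vpreb2 and Igll1. Vpreb3, which is not part of it, was listed with these genes, as a list of 4. Vpreb3 was lower as a DEG in both flight comparisons (-1.28 ± 0.21 in wild-type and -1.33 ± 0.21 in Nrf2-KO mice). Vpreb1, Vpreb2 and Igll1 were DEGs in no comparison, and no gene of the list was a DEG in the genotype comparisons. With no minimum fold change, 3 of the 4 were lower at the adjusted p in each flight comparison, and 1, Vpreb3, in each genotype comparison. The list's median log2 fold change was -0.85 and -0.95 for flight in wild-type and Nrf2-KO mice. For loss of Nrf2 it was -0.11 on the ground and -0.22 after flight. Of 3 octamer factors, which bind Ig promoters or serve as their coactivator, the coactivator Pou2af1 was lower as a DEG in FL-WT vs. GC-WT (-1.01 ± 0.18) and with loss of Nrf2, both on the ground (-1.18 ± 0.18) and after flight (-1.12 ± 0.18). All 3 were lower at the adjusted p in each comparison with no minimum fold change. None of 6 genes linked to locus folding or Ighv accessibility (Pax5, Yy1, Ctcf, Rad21, Ezh2 and Ikzf1) was a DEG in any comparison, although their median log2 fold change was -0.49 to -0.64, beside -0.22 to -0.29 for all genes. No gene of these lists was higher as a DEG.

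Markers of cell types also differed. Of 10 B progenitor and B cell markers, Cd79a was the only DEG, lower in FL-KO vs. FL-WT (-1.12 ± 0.20), and the list's median log2 fold change was -0.66 and -0.58 for flight in wild-type and Nrf2-KO mice, and -0.74 and -0.49 for loss of Nrf2 on the ground and after flight. Its summed TPM, most of it Cd24a, which other marrow cells also express, was 726 to 1216 in GC-WT mice, 416 to 845 in FL-WT mice, 856 to 1216 in GC-KO mice and 486 to 765 in FL-KO mice. The 8 plasma cell markers summed to 81.4 to 186 TPM in GC-WT mice, 59.6 to 169 in FL-WT mice, 107 to 183 in GC-KO mice and 88.5 to 127 in FL-KO mice. Most of this sum was Jchain and Xbp1. Of 6 tested, Irf4 was lower as a DEG in GC-KO vs. GC-WT (-1.03 ± 0.18). With no minimum fold change, 4 of the 6 were lower at the adjusted p in each flight comparison, beside 39.0% and 53.1% of all genes. For loss of Nrf2 these were 3 on the ground and 4 after flight, beside 42.9% and 47.2%. The list's median log2 fold change was -0.39 and -0.37 for flight in wild-type and Nrf2-KO mice. For loss of Nrf2 it was -0.34 on the ground and -0.40 after flight. The 6 T cell markers summed to 18.6 to 31.3 TPM in GC-WT mice, 17.1 to 36.2 in FL-WT mice, 21.4 to 29.6 in GC-KO mice and 18.0 to 32.2 in FL-KO mice. Cd3e was lower as a DEG in FL-KO vs. FL-WT, with a log2 fold change of -1.05 ± 0.18 (SE). Those of Cd3d, Cd3g, Trbc2, Cd4 and Cd8a were 0.16, 0.23, -0.01, -0.26 and -0.17 there, and the list's median was -0.09. Of 7 neutrophil markers, the granule genes Mpo and Ltf were lower in both genotype comparisons, Elane in FL-KO vs. FL-WT and Mpo in FL-KO vs. GC-KO. In contrast, S100a8 and S100a9, which encode calprotectin, had positive differences past the adjusted p and without the fold, at 0.55 ± 0.14 and 0.57 ± 0.15 in FL-WT vs. GC-WT and at 0.48 ± 0.14 and 0.45 ± 0.15 in GC-KO vs. GC-WT (SE; limma, adjusted p between 0.0050 and 0.019), as did Camp in the former comparison (0.36 ± 0.15, adjusted p = 0.066). The summed TPM of the neutrophil list was 28483 to 53566 in GC-WT mice, 42723 to 59119 in FL-WT mice, 40349 to 62316 in GC-KO mice and 48101 to 64912 in FL-KO mice. None of 6 erythroid markers was a DEG. No marker of these lists was at 0 in all libraries, and the part of cell composition in the Ighv differences was not tested.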

How the data were processed

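RNA of cryopreserved bone marrow cells was sequenced, a library per mouse, from 200 ng of RNA. The authors mapped reads to mm10 (GRCm38) by STAR 2.6.1, and RSEM 1.3.1 gave TPM, and the deposited table holds these TPM, summing to 999999.5 to 1000001.1 per library. RSEM divides reads that fit several segments among them, so values of near-identical segments are uncertain. Of 54752 gene IDs, 54723 matched GENCODE M21. Groups came from the sample labels. Genes above 1 TPM in at least 1 library (12373) entered 1 limma fit (3.58.1, R 4.3.3) of log2(TPM + 1) across the 24 libraries, with group as the term. The limits for DEGs were a Benjamini-Hochberg adjusted p of 0.1 and a change of 2-fold. Single segments were also tested with exact two-sided permutation tests of the rank sum. Sums, shares and counts over segments were given without tests. The limma steps were tested on simulated data. The remaining work was done in Python 3.11.15 with numpy 2.4.6, pandas 2.3.3, Biopython 1.88 and matplotlib 3.10.9.

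Named segments were the 10 with the highest mean TPM, up to 10 DEGs per comparison by absolute log2 fold change, and the leading segment of each mouse. The 11 gene lists were heavy chain constant regions and joining segments, V(D)J recombination, surrogate light chain, octamer factors, locus folding, and B cell, plasma cell, T cell, neutrophil and erythroid markers. Segments, rules and lists were chosen with earlier results of these data known. Alternatives were another pseudocount, filter, scaling, variance trend, sample set, threshold or detection limit, a block for mouse number, and leaving out single libraries. Leaving out 5 small RNAs, counting equal segments once and a filter on mean TPM were added after the data were seen.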

Additional observations from a re-analysis of the deposited data

Results flagged for a closer look

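In 33 of 136 checks of a segment or share within a group of 6 mice, 1 mouse stood apart from the other 5 by Dixon's test at the 95% level, which chance passes in about 1 of 20 groups. Every such mouse was high. The checks are not independent, since segments of a mouse share a library. The near-identical pair was also checked as separate segments. All flagged segments had been named for a high mean, for a DEG call or for leading in a mouse. That choice favours segments with a high mouse, so the count of flags cannot be set against the chance rate. It only describes where single mice were high.

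In GC-WT mice these were Ighv1-9 (145.7 TPM), Ighv6-3 (24.7 TPM) and Ighv8-12 (19.3 TPM) in mouse 7, Ighv8-8 (109.1 TPM) and Ighv9-3 (30.6 TPM) in mouse 8, and Ighv1-53 (41.2 TPM) and Ighv1-52 (6.23 TPM) in mouse 5. In FL-WT mice they were Ighv2-3 (117.8 TPM), Ighv1-52 (24.6 TPM), Ighv1-64 (20.4 TPM), Ighv1-62-2 and Ighv1-71 (2.50 TPM each) and the share of proximal families (33.7%) in mouse 7. The remaining FL-WT values were Ighv1-53 (58.3 TPM) and Ighv1-19 (10.2 TPM) in mouse 6, Ighv9-3 (20.01 TPM) in mouse 8 and Ighv1-50 (15.8 TPM) in mouse 10.

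In GC-KO mice they were Ighv1-50 (41.0 TPM), Ighv1-26 (22.6 TPM), Ighv2-3 (7.38 TPM) and Ighv5-17 (4.42 TPM) in mouse 11, Ighv1-62-2 and Ighv1-71 (13.5 TPM each) in mouse 1, Ighv1-53 (26.3 TPM) in mouse 2, Ighv1-7 (10.7 TPM) in mouse 4 and Ighv1-84 (0.79 TPM) in mouse 9. In FL-KO mice they were Ighv8-8 (18.6 TPM), Ighv1-64 (5.06 TPM) and Ighv1-12 (4.37 TPM) in mouse 4, Ighv1-26 (20.4 TPM) in mouse 11, Ighv1-82 (11.2 TPM) in mouse 2, Ighv5-9 (8.51 TPM) in mouse 9 and Ighv6-3 (2.59 TPM) in mouse 12.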

How the results depend on the processing

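Counts of lower DEGs are given in the order of flight in wild-type mice, flight in Nrf2-KO mice, loss of Nrf2 on the ground and loss of Nrf2 after flight, where they were 7, 3, 15 and 21. They were 16, 20, 37 and 40 with a pseudocount of 0.1, which also gave 1 higher DEG in GC-KO vs. GC-WT, and 2, 1, 8 and 8 with median-of-ratios scaling. With quantile normalization they were 0, 1, 7 and 6, and limma then gave 9 lower segments at an unadjusted p under 0.05 in FL-WT vs. GC-WT. With no minimum fold change they were 22, 25, 47 and 44, beside 1 and 2 higher segments in the first and the third comparison. Without the 5 small RNAs, chosen after seeing the data, the counts of FL-WT vs. GC-WT and GC-KO vs. GC-WT were 14 and 36. The count of FL-WT vs. GC-WT was 4 with no filter, with only the groups compared or at an adjusted p under 0.05. The cause was not tested. Except with no minimum fold change, the share of all genes called under these settings is not given, so these counts are not set beside all genes. Of 34 named calls, median-of-ratios scaling kept 19 and quantile normalization 14, and no direction turned.

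Median log2 fold changes of the segments relative to all genes were -0.11, -0.02, -0.34 and -0.33, and with median-of-ratios scaling -0.12, -0.11, -0.35 and -0.40. That scaling gave a log2 ratio of summed TPM of -0.29 in FL-KO vs. GC-KO. The difference in segments detected above 1 TPM, -17.5, -16.7 and -26.5 in the last 3 comparisons, was -2.33, -5.83 and -5.33 above 0 TPM, and above 5 TPM it was -4.67 in FL-KO vs. GC-KO and -11.8 in FL-KO vs. FL-WT.

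Leaving out 1 library gave 3 to 11, 2 to 7, 13 to 26 and 10 to 28 lower DEGs, and 0 higher DEGs in each comparison. It gave log2 ratios of summed TPM of -0.82 to -0.34, -0.87 to -0.62, -1.37 to -1.04 and -1.59 to -1.17, and differences in segments detected of -10.0 to -5.20, -20.1 to -14.7, -18.0 to -15.1 and -29.1 to -23.7. Differences in the distal share, in percentage points, were -7.95 to -2.22, -5.69 to -2.35, -4.98 to -1.28 and -4.76 to 0.97, with the sign turned in FL-KO vs. FL-WT without FL-WT mouse 3 (0.0216) or FL-WT mouse 6 (0.97). The interaction gave 0 to 1 DEGs, with Ighv1-84 called without GC-WT mouse 10 (limma, adjusted p = 0.098).

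Ground and flight mice share numbers in the labels. Correlations of same-numbered mice ran from -0.03 to 0.273 and 3 of 12 mice correlated best with their own number, so the numbers were not taken as pairs. With the mouse number as a replicate block, 7 and 3 segments were lower and 0 higher in the flight comparisons, and 1, Ighv1-84, was a DEG in the interaction (limma, adjusted p = 0.046). Read counts were not used here, so the depth that limits low segments is unknown.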
